A study of Mus musculus with 12 samples.

Results

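The axon guidance ligands and receptors of the mouse retina are described here, from RNA sequencing of whole retinas taken 2 days after optic nerve crush (ONC). The genes were chosen by name, as all semaphorins of classes 3 to 7, plexins, neuropilins, ephrins, Eph receptors, Slits, Robos, netrins, netrin-Gs and the netrin receptors Dcc, Neo1 and Unc5a to Unc5d. A gene also needed at least 10 counts in 3 of the 9 libraries. The names matched 72 genes, and 70 of them passed the count minimum, out of 25655 genes in the deposited tables and 15322 with that minimum. Ntn5 and Plxnb3 did not pass it. The 70 genes held 36 ligands and 34 receptors, and 69 of them had at least 10 counts in all 9 libraries, the exception being Efna4.

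The left optic nerve of C57BL/6J mice (C57BL/6 in the strain label), 8 to 10 weeks old in the sample labels, was crushed, and the eye then received an intravitreal injection of PBS, fluvastatin, MBV or both agents. PBS is the vehicle, fluvastatin is a statin that inhibits HMG-CoA reductase, and MBV are matrix-bound nanovesicles, here taken from the extracellular matrix of porcine urinary bladder. Each of the 4 groups held 3 samples, and count columns that name their library belong to PBS, Fluvastatin and MBV, so that the combined treatment was not analysed here. All 3 groups carried the crush, so no value below compares injured with uninjured retina. The study describes its sequenced samples as biological replicates, and the labels do not tie a sample to an animal.

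Axon guidance molecules steer growing axons by attraction or repulsion. Secreted Slits act on Robos, netrins on Dcc, Neo1 and Unc5 receptors, semaphorins on plexins with or without neuropilins, and membrane-bound ephrins on Eph receptors of neighbouring cells, which can also signal back through the ephrin. In the developing visual system graded EphA and EphB receptors map retinal ganglion cell axons onto their targets, Slits confine them to the chiasm and optic tract, and netrin at the optic disc guides them out of the eye. In the adult retina members of these families are also found in amacrine, bipolar, glial and vascular cells. Semaphorins and plexins are known for sorting neurites into layers while the retina develops.

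Each library held 21349516 to 30992040 counts, and levels below are in CPM, counts scaled to the library total with TMM factors. Sample numbers repeat between PBS and Fluvastatin libraries and differ in MBV libraries. They are read here as 2 sets, with Fluvastatin and MBV in 1 and PBS in the other. No label names a set, and the numbers alone would also allow PBS and MBV in 1 set. On the reading used here, the treatment cannot be told apart from the set in both comparisons with PBS. The comparison of MBV with Fluvastatin then lies within 1 set. In bulk retina, fewer cells of a type and less RNA per cell cannot be told apart either. The summed level of 8 photoreceptor markers was 43566 to 47069 CPM with PBS, 38902 to 42093 with fluvastatin and 30388 to 42786 with MBV, that of 10 retinal ganglion cell markers 699 to 834, 766 to 1003 and 707 to 862, and that of 8 endothelial markers 259 to 315, 243 to 271 and 235 to 284. Kdr held most of the endothelial sum, and the other 7 markers, a split made after seeing the values, summed to 32.99 to 38.6 CPM with PBS, 33.7 to 48.8 with fluvastatin and 38.3 to 50.4 with MBV. The 6 Muller glia markers summed to 2959 to 3627 CPM with PBS, 1499 to 2878 with fluvastatin and 1313 to 2869 with MBV, and the 6 lens markers to 0.608 to 4.78, 1.31 to 19.7 and 58.9 to 149.7 CPM. Of the Muller glia markers 5 fell with fluvastatin and 2 with MBV, and of the lens markers all 6 rose with MBV and none with fluvastatin. Glul held most of the Muller glia sum with PBS. The 10 pigment cell and pigment epithelium markers summed to 371 to 394 CPM with PBS, 269 to 326 with fluvastatin and 239 to 315 with MBV. Of these 6 fell and 2 rose with fluvastatin, and 6 fell and 1 rose with MBV. Of the ganglion cell markers 3 rose with fluvastatin and 1 fell with MBV. The 8 monocyte and macrophage markers summed to 12.7 to 26.9 CPM with PBS, 9.58 to 12.4 with fluvastatin and 17.3, 11.1 and 84.7 in MBV replicates 1, 2 and 3. What these shifts contribute to the values below was not tested.

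Levels were compared between genes only per kilobase of exon. Over the 9 libraries the 70 genes ranged from 0.184 to 41.8 CPM per kilobase with a median of 3.41, and the median of 15294 genes with the count minimum and a length was 3.77. Ntng2, which encodes the membrane-anchored netrin-G2, stood highest at 41.8. Sema3f, a secreted semaphorin that binds Nrp2, followed at 21.9 and Plxna2, a semaphorin receptor, at 19.0. Sema7a at 16.8, Plxnb2 at 13.5, Sema6a at 12.6, Neo1 at 12.5 and Plxnb1 at 11.8 came next. The lowest were Epha1 at 0.228, Robo3 at 0.202 and Slit3 at 0.184.

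**Figure D1:**
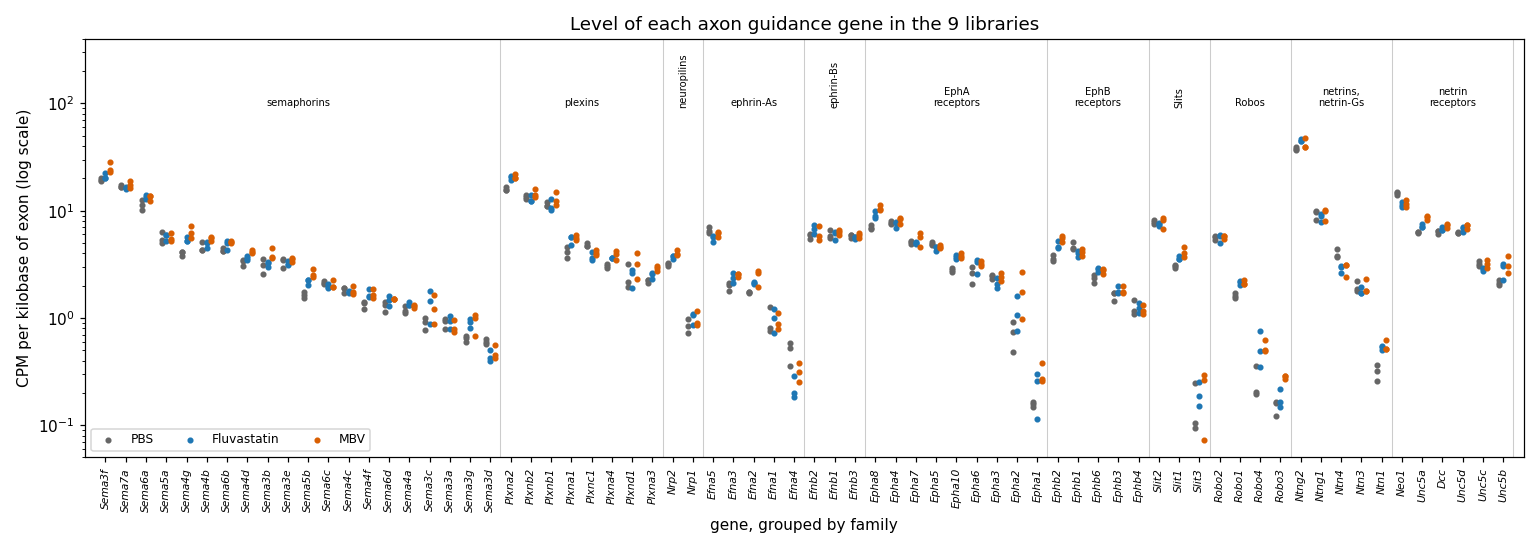
Level of each axon guidance gene in each library, in CPM per kilobase of exon on a log axis, with genes grouped by family and ordered by mean level within it. Points are the 3 PBS, 3 fluvastatin and 3 MBV libraries, and Ntng2 at a mean of 41.8 and Slit3 at 0.184 mark the ends of the range.

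Members of a family differed in level. Among Slits, Slit2 was at 7.71 CPM per kilobase, Slit1 at 3.58 and Slit3 at 0.184, and among Robos, Robo2 was at 5.63, Robo1 at 1.96, Robo4 at 0.441 and Robo3 at 0.202. Nrp2 was at 3.62 and Nrp1 at 0.938, and the repulsive receptor Unc5a at 7.38 stood near Dcc at 6.77 and Unc5d at 6.71. The 3 ephrin-Bs lay close together at 5.76 to 6.22, within the range of their libraries as plotted. Replicates varied little for most genes, with a median coefficient of variation of 6.12% with PBS, 6.91% with fluvastatin and 8.48% with MBV, and Slit3 had the highest with PBS at 56.7% and with MBV at 57.0%.

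Fluvastatin and MBV were each compared with PBS to ask which guidance genes differ in the injured retina 2 days after either agent. With fluvastatin, 20 of the 70 genes rose and 5 fell at an FDR (Benjamini-Hochberg) under 0.05 by the quasi-likelihood test of edgeR over 18818 genes, where 9.36% of all genes tested rose and 10.2% fell. With MBV, 27 rose and 3 fell, against 12% and 14.1% of 18897 genes. The changes were small, with folds of 1.16 to 2.11 among the genes that rose with fluvastatin and 1.14 to 2.51 with MBV, and of 1.19 to 1.38 and 1.18 to 1.38 among those that fell. The median log2 fold change of the 70 genes was 0.15 with fluvastatin and 0.20 with MBV, and that of all genes was -0.01 and 0.01. Only Robo4 with fluvastatin and Epha2 and Robo4 with MBV were called with a fold of at least 2, where 1.17% of all genes tested were with fluvastatin and 1.95% with MBV. Among genes with the count minimum the background was 11.4% higher and 12.4% lower with fluvastatin and 14.7% and 17.2% with MBV, and among those with exons as long as the members' lower quartile (5292 bases) or longer it was 13.1% and 14.5%, and 17.0% and 19.0%.

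Transcript GC content moved with the calls across the whole table. The longest transcript of genes that rose with fluvastatin had a median GC content of 54.0%, against 43.7% for genes that fell and 49.6% for the rest, and with MBV these were 53.7%, 44.9% and 49.7%. Guidance transcripts are GC-rich, with a median of 55.0% over the 70 genes against 49.5% over 15294 genes. After a correction for transcript GC content and length in each library, an alternative chosen after seeing the data, 5 guidance genes rose and 7 fell with fluvastatin, where 5.51% of all genes rose and 5.84% fell, and the median log2 fold change was 0.07. With MBV the corrected fit gave 15 that rose and 4 that fell, against 8.54% and 9.86%, and a median of 0.15. The calls found in both fits were 8 of the 25 with fluvastatin and 18 of the 30 with MBV. Whether the GC trend belongs to the library set or to the treatments cannot be told apart, and the corrected values of lost calls are given below.

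**Figure D2:**
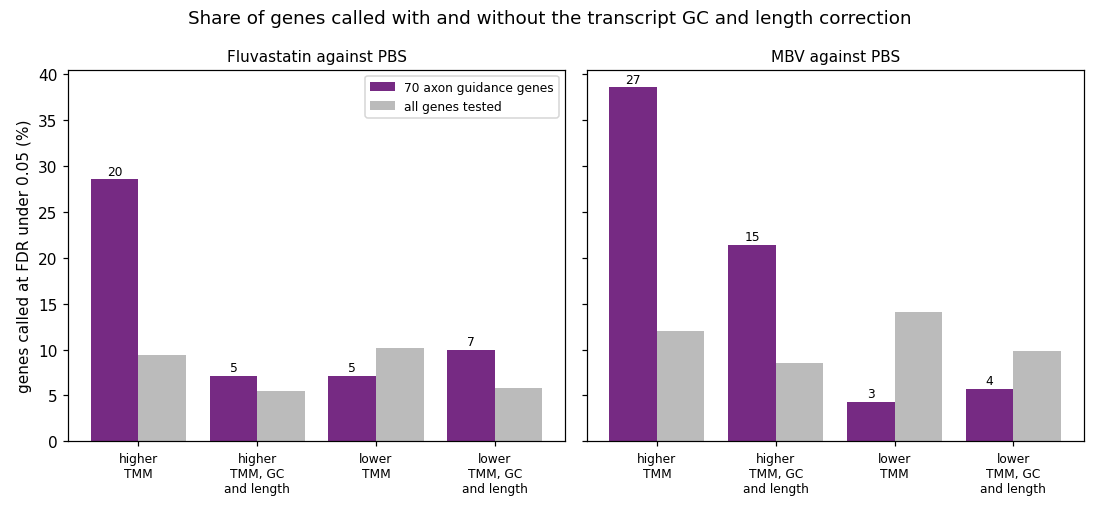
Percent of the 70 axon guidance genes (purple) and of all genes tested (grey) called higher or lower than PBS at an FDR under 0.05, before and after the correction for transcript GC content and length, with the number of guidance genes above each purple bar. With fluvastatin the genes called higher went from 20 to 5 and with MBV from 27 to 15.

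The size of the fluvastatin count also moved when single libraries were left out, and so did the share of all genes called. Without Fluvastatin replicate 2 it was 10 higher and 3 lower, without Fluvastatin replicate 3 it was 13 and 3, without PBS replicate 1 it was 11 and 3, and without PBS replicate 2 it was 12 and 5. It was 26 and 7 without Fluvastatin replicate 1, and 17 and 4 without PBS replicate 3. Of all genes tested, 5.55% rose and 5.76% fell without Fluvastatin replicate 2, and 6.89% and 7.29% without Fluvastatin replicate 3. These shares were 4.499% and 4.76% without PBS replicate 1, and 6.56% and 7.49% without PBS replicate 2. They were 11.4% and 12.1% without Fluvastatin replicate 1, and 8.32% and 7.88% without PBS replicate 3. With every library kept they were 9.36% and 10.2%. With MBV the count of higher genes stayed between 18 and 29 and that of lower genes between 2 and 3. The all-gene shares with MBV were lowest without PBS replicate 1, at 6.41% higher and 8.06% lower. They were highest without MBV replicate 3, at 14.04% and 16.1%. Ranges of the groups did not overlap for 26 genes that were higher and 10 that were lower with fluvastatin, where 20.3% and 22.5% of genes with the count minimum did not overlap, and for 33 and 6 with MBV, where the shares were 23.6% and 24.9%. As shares of the 70 genes these were 37.1% and 14.3% with fluvastatin, and 47.1% and 8.57% with MBV.

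Both comparisons share the PBS libraries, so their values are given side by side, fluvastatin first. A signed value with an SE is a log2 fold change throughout, with its FDR from the quasi-likelihood test of edgeR, and a corrected value is the log2 fold change from the fit with the GC and length correction. Of the 70 genes, 16 rose in both, 3 fell in both (Neo1, Plxnc1 and Ntn4), 4 rose with fluvastatin alone among the calls, 11 rose with MBV alone, 2 fell with fluvastatin alone (Efna5 and Sema3d) and 34 were called in neither. No gene was called in opposite directions, and none of the 17 called in a single comparison was called between MBV and Fluvastatin. Among the 34 receptors 12 rose and 2 fell with fluvastatin and 17 rose and 2 fell with MBV, with median log2 fold changes of 0.20 and 0.28. Among the 36 ligands the counts were 8 and 3, then 10 and 1, and the medians 0.10 and 0.13. Of all genes tested 9.36% rose and 10.2% fell with fluvastatin, and 12% and 14.1% with MBV. After the correction the receptors called with fluvastatin were Epha10, Ephb2, Plxna2 and Robo1, higher, and Ephb1, Neo1, Plxnb2 and Plxnc1, lower. The ligands were then Sema4g, higher, and Ntn4, Sema6c and Sema7a, lower. With MBV the corrected ligand calls were Sema4g and Sema5b, higher, and Ntn4, lower, the rest being receptors. Whether receptors and ligands differ was not tested.

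**Figure D3:**
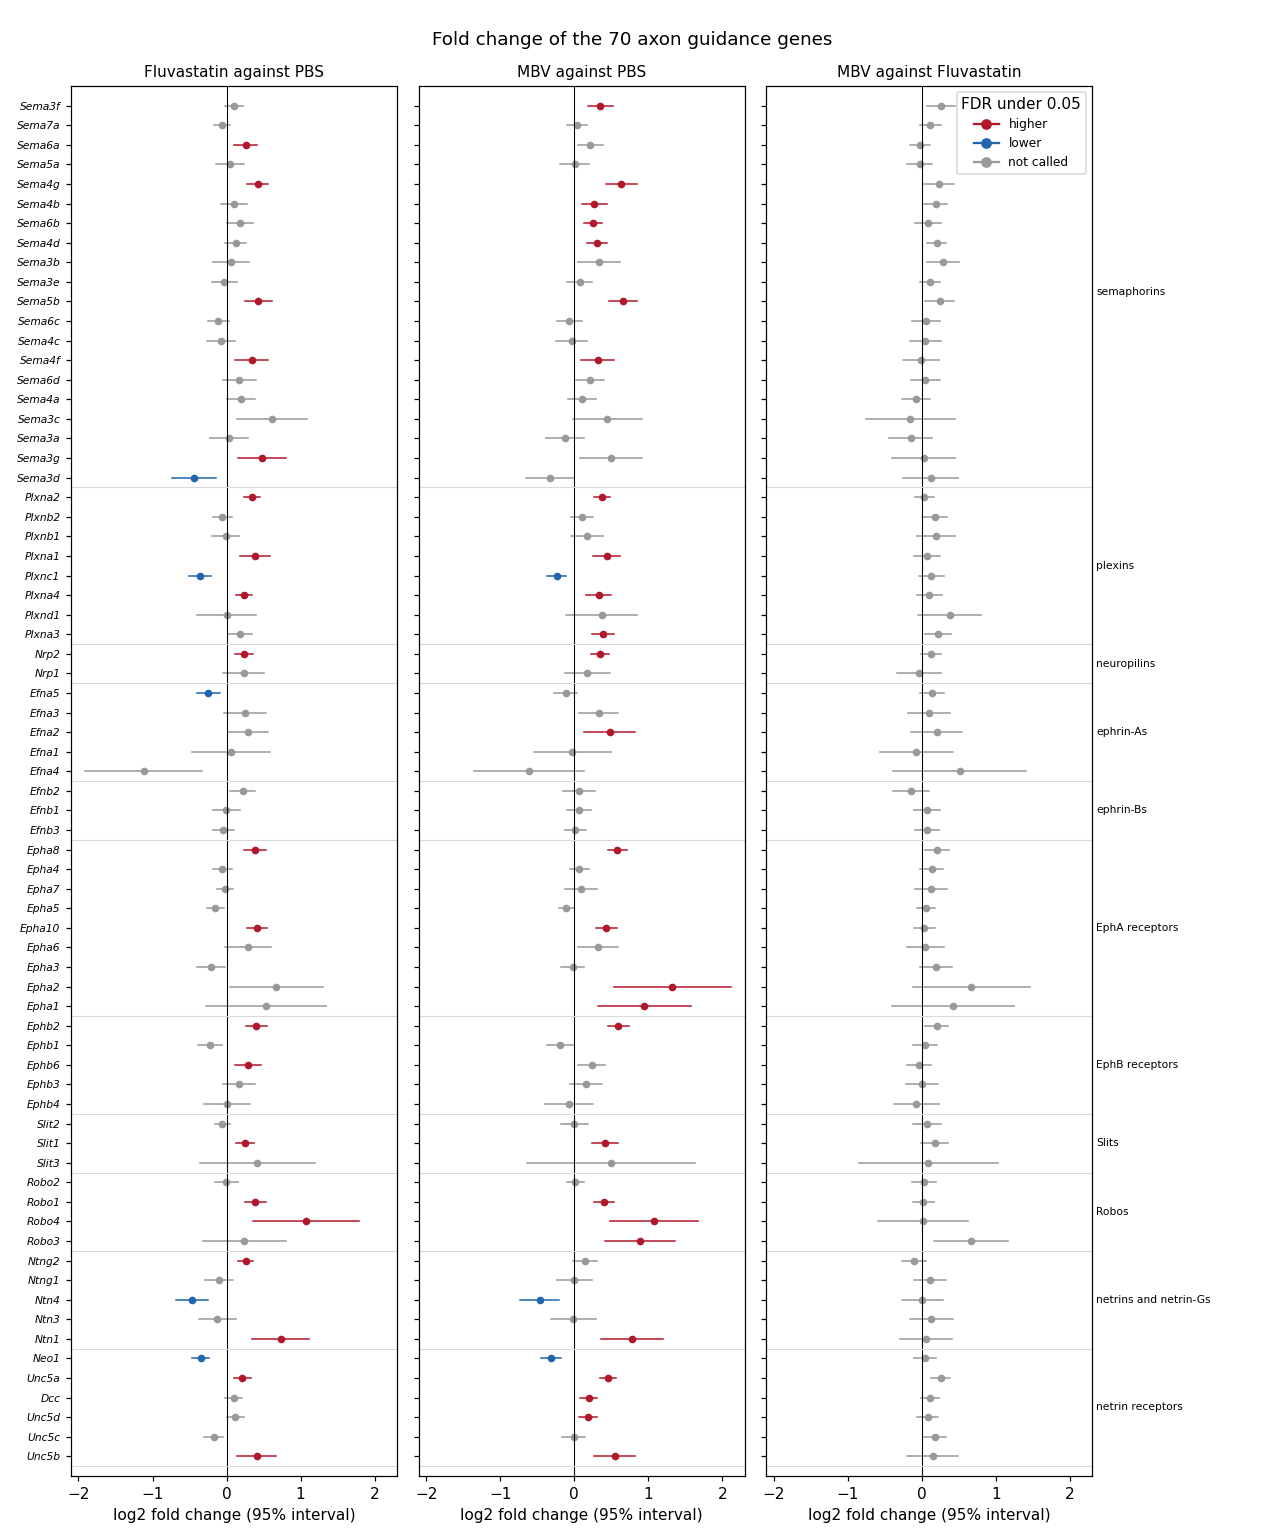
Log2 fold change of each axon guidance gene with its 95% interval in the 3 comparisons, with genes grouped by family. Red marks genes called higher and blue genes called lower at an FDR under 0.05, which are 20 and 5 with fluvastatin, 27 and 3 with MBV, and 0 for MBV against Fluvastatin.

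Semaphorins are the largest family here, with 20 members. With fluvastatin 5 rose and 1 fell, and with MBV 7 rose and none fell. Sema5b, a transmembrane semaphorin known for keeping retinal neurites within their layers in development, was at 12.9, 11.9 and 13.6 CPM with PBS, 17.8, 16.001 and 17.8 with fluvastatin, and 19.7, 22.4 and 18.9 with MBV. No PBS library reached any treated library, and its log2 fold change was 0.43 (SE 0.082, FDR 0.00615) with fluvastatin and 0.66 (SE 0.084, FDR 0.00103) with MBV, and the corrected value with fluvastatin was 0.27 (FDR 0.0564). Sema4g, a transmembrane semaphorin of class 4 whose exons overlap those of Mrpl43, was at 38.2, 38.7 and 35.1 CPM with PBS, 48.6, 53.3 and 48.2 with fluvastatin, and 57.3, 66.8 and 51.4 with MBV. The 3 PBS libraries again lay below the rest, with log2 fold changes of 0.42 (SE 0.063, FDR 0.00213) and 0.64 (SE 0.091, FDR 0.001602), and the call held in all 12 alternatives in both comparisons. Sema3f was at 107, 114 and 109 CPM with PBS, 127, 115 and 114 with fluvastatin, and 131, 134 and 161 with MBV. Only the MBV libraries were clear of PBS, and the log2 fold change was 0.11 (SE 0.055, FDR 0.2196) with fluvastatin and 0.35 (SE 0.076, FDR 0.00955) with MBV, with a corrected 0.18 (FDR 0.154) for MBV.

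Sema4d, a plexin-B ligand found on immune and neural cells, shares 13.7% of its exon length with Secisbp2 on the other strand. It was at 44.6, 39.3 and 43.8 CPM with PBS, 44.3, 46.1 and 48.6 with fluvastatin, and 53.3, 51.5 and 54.7 with MBV. All 3 MBV libraries lay above PBS, while fluvastatin overlapped it. The log2 fold change was 0.12 (SE 0.063, FDR 0.215) with fluvastatin and 0.31 (SE 0.059, FDR 0.00546) with MBV, and corrected for MBV it was 0.18 (FDR 0.0664). Sema6a, a transmembrane ligand of class A plexins, was at 108, 95.7 and 119 CPM with PBS, 122, 135 and 128 with fluvastatin, and 116, 130.2 and 131 with MBV. It rose with fluvastatin at 0.26 (SE 0.071, FDR 0.0303), lost that call in the corrected fit at 0.21 (FDR 0.0921) and without Fluvastatin replicate 2 or 3 or PBS replicate 1 or 2, and stood at 0.22 (SE 0.077, FDR 0.0658) with MBV, where 4 of 12 alternatives called it higher. Sema3d, a secreted semaphorin, was at 5.07, 5.29 and 5.66 CPM with PBS, 4.49, 3.51 and 3.82 with fluvastatin, and 4.97, 4.02 and 3.81 with MBV. It fell with fluvastatin at -0.44 (SE 0.14, FDR 0.0453) and was at -0.33 (SE 0.14, FDR 0.122) with MBV, but the fluvastatin call held in only 3 of 12 alternatives and its FDR reached 0.197 over them, in the corrected fit at -0.30 (FDR 0.197).

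The other semaphorins with long described roles on retinal axons were not called in either comparison. Sema7a, a membrane-anchored semaphorin that can promote axon growth, was at 57.9, 54.7 and 55.7 CPM with PBS, 53.7, 54.8 and 52.3 with fluvastatin, and 58.03, 53.6 and 62.4 with MBV. Sema7a differed by -0.07 (SE 0.049, FDR 0.386) with fluvastatin and 0.04 (SE 0.061, FDR 0.675) with MBV, and in the corrected fluvastatin fit it was called lower at -0.18 (FDR 0.0445). Sema3a, the classical repellent that acts through Nrp1, was at 14.6, 12.4 and 15.3 CPM with PBS, 12.4, 16.3 and 14.6 with fluvastatin, and 11.6, 12.4 and 14.9 with MBV, with differences of 0.04 (SE 0.11, FDR 0.858) and -0.13 (SE 0.11, FDR 0.451) on the log2 scale. Those intervals ran from -0.22 to 0.29 and from -0.38 to 0.13. Sema5a differed by 0.05 (SE 0.083, FDR 0.742) and 0.0036 (SE 0.088, FDR 0.9802), and Sema6d by 0.17 (SE 0.100, FDR 0.261) and 0.21 (SE 0.082, FDR 0.0895), and groups overlapped for both genes with fluvastatin. Sema6d did not overlap PBS with MBV, and without PBS replicate 3 it was called there at 0.28 (FDR 0.04403). Of the remaining calls, Sema4f rose in both comparisons, Sema3g with fluvastatin, and Sema4b and Sema6b with MBV, and none of these was called in the corrected fit. The corrected values were 0.24 (FDR 0.165) and 0.21 (FDR 0.1701) for Sema4f, 0.37 (FDR 0.139) for Sema3g with fluvastatin, and 0.14 (FDR 0.195) for Sema4b and 0.05 (FDR 0.473) for Sema6b with MBV. Of 12 alternatives, the Sema4f calls held in 5 with fluvastatin and 6 with MBV. The call of Sema3g held in 2, that of Sema4b in 6 and that of Sema6b in 11. Sema6c, called in neither comparison, was called lower in the corrected fluvastatin fit, at -0.25 (FDR 0.0312).

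Plexins are the receptors of semaphorins. Of 8, 3 rose and 1 fell with fluvastatin, and 4 rose and 1 fell with MBV, and the risers were the class A plexins. After the correction the plexins that rose were Plxna2 with fluvastatin and Plxna2 and Plxna3 with MBV. Plxnb2 was called lower in the corrected fluvastatin fit, at -0.21 (FDR 0.0413). Plxna2, at chr1:194300526-194499177 on the plus strand of GRCm39, was at 268, 269 and 287 CPM with PBS, 364, 333 and 351 with fluvastatin, and 347, 376 and 349 with MBV. Every treated library stood at least as high as 333 CPM and no PBS library above 287. Plxna2 rose at 0.35 (SE 0.047, FDR 0.00148) with fluvastatin and 0.37 (SE 0.048, FDR 0.00109) with MBV, and it held in all 12 alternatives, at 0.26 (FDR 0.00991) and 0.26 (FDR 0.00612) after the correction. Plxna1 was at 63.9, 56.9 and 72.1 CPM with PBS, 73.9, 88.9 and 87.9 with fluvastatin, and 82.3, 92.7 and 87.5 with MBV, and Plxna4, a partner of Nrp1 for Sema3a, was at 44.7, 43.05 and 46.4 CPM with PBS, 52.7, 52.7 and 52.8 with fluvastatin, and 57.8, 61.7 and 50.2 with MBV. All treated libraries of both genes exceeded the PBS ones. The log2 fold changes of Plxna1 were 0.38 (SE 0.091, FDR 0.0158) and 0.44 (SE 0.081, FDR 0.00494), and corrected 0.20 (FDR 0.202) and 0.20 (FDR 0.0948). Those of Plxna4 were 0.24 (SE 0.049, FDR 0.00852) and 0.33 (SE 0.075, FDR 0.0119), and corrected 0.11 (FDR 0.191) and 0.16 (FDR 0.147). The fluvastatin call of Plxna1 was also lost without Fluvastatin replicate 2 or 3 or PBS replicate 1 or 2. That of Plxna4 was also lost without PBS replicate 1.

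Plxna3 was at 17.7, 16.6 and 17.9 CPM with PBS, 20.6, 20.2 and 18.4 with fluvastatin, and 23.1, 23.98 and 21.5 with MBV. PBS libraries lay below all others, and it was at 0.18 (SE 0.072, FDR 0.114) with fluvastatin and rose with MBV at 0.38 (SE 0.066, FDR 0.003503), which held in all 12 alternatives. Plxnc1, the receptor of Sema7a, was at 42.9, 40.2 and 40.2 CPM with PBS, 35.3, 31.1 and 29.9 with fluvastatin, and 35.04, 33.3 and 36.8 with MBV. It was lower in every treated library than in any PBS library. Plxnc1 fell at -0.36 (SE 0.069, FDR 0.00604) with fluvastatin, a call held in all 12 alternatives, and at -0.24 (SE 0.057, FDR 0.014999) with MBV, where it was lost without PBS replicate 1 with an FDR of 0.0807. Plxnd1, best known in blood vessels, was at 17.3, 15.5 and 25.3 CPM with PBS, 15.2, 20.8 and 22.1 with fluvastatin, and 24.99, 31.9 and 18.5 with MBV, and its replicates spread widely. The differences were 0.0038 (SE 0.18, FDR 0.991) and 0.37 (SE 0.21, FDR 0.241), and without MBV replicate 3 the MBV difference was 0.55 (FDR 0.0256).

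Of the neuropilins, the co-receptors of secreted semaphorins, Nrp2 was at 36.3, 38.7 and 38.3 CPM with PBS, 45.1, 45.6 and 42.8 with fluvastatin, and 47.4, 51.2 and 46.6 with MBV. PBS did not overlap either treatment. Nrp2 rose at 0.23 (SE 0.054, FDR 0.0134) with fluvastatin and 0.35 (SE 0.056, FDR 0.00265) with MBV. The MBV call held in all 12 alternatives, and the fluvastatin call was lost without Fluvastatin replicate 2, without PBS replicate 1 and in the corrected fit, at 0.17 (FDR 0.0601), with an FDR of up to 0.0812. Nrp1 was at 12.8, 11.1 and 15.01 CPM with PBS, 12.98, 16.2 and 16.4 with fluvastatin, and 13.7, 17.5 and 13.003 with MBV, with all groups overlapping, and differed by 0.23 (SE 0.12, FDR 0.231) and 0.17 (SE 0.14, FDR 0.388). Without Fluvastatin replicate 1 the fluvastatin value was 0.33 (FDR 0.0497).

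**Figure D4:**
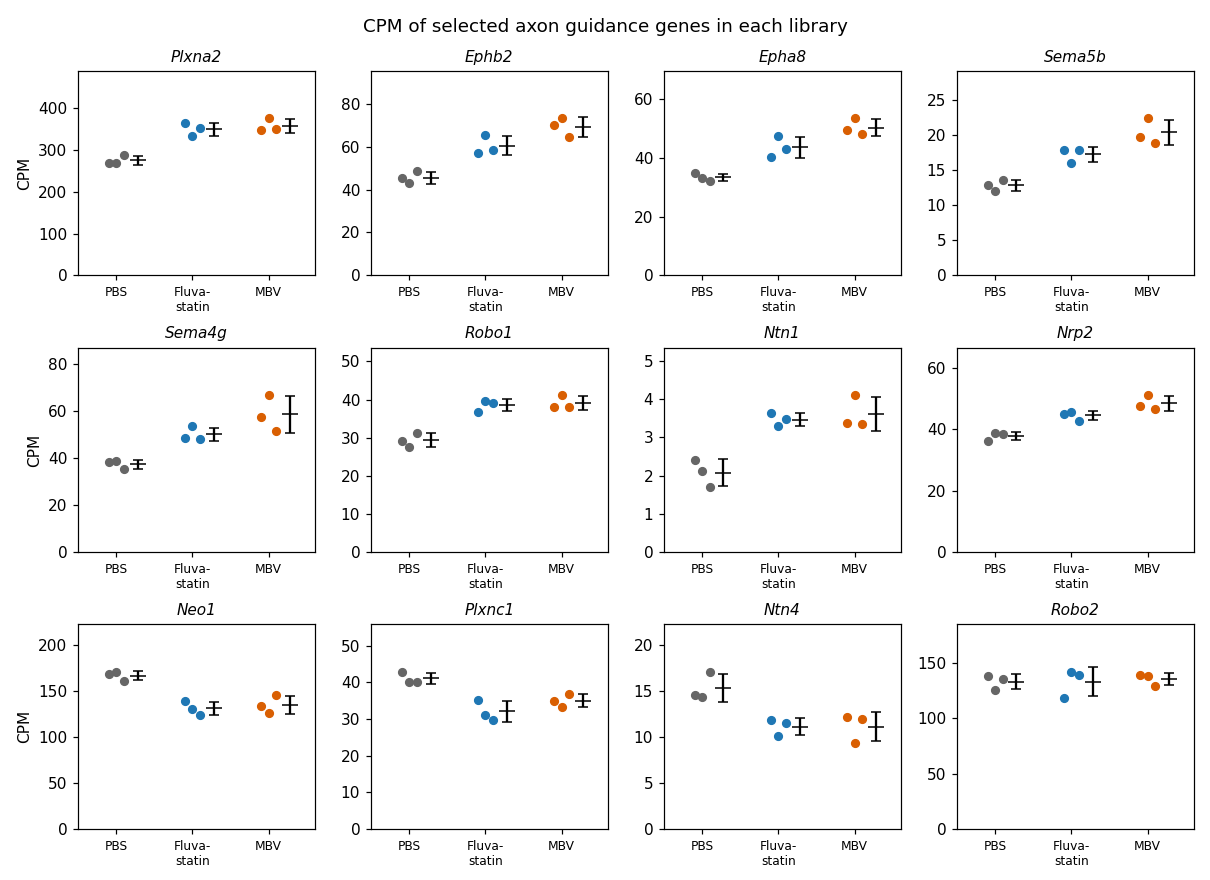
CPM of 12 axon guidance genes in each library, with each axis starting at 0 and group means with SD (n = 3) drawn beside the points. Plxna2, Ephb2, Epha8, Sema5b, Sema4g, Robo1, Ntn1 and Nrp2 lay above the PBS libraries in all 6 treated libraries, Neo1, Plxnc1 and Ntn4 below them, and Robo2 overlapped.

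Ephrins are the ligands of the Eph receptors. Of 3 ephrin-Bs and 5 ephrin-As, no ephrin-B was called, 1 ephrin-A fell with fluvastatin and 1 rose with MBV. Efna5, a GPI-anchored ephrin that repels retinal axons in the map of their targets, was at 37.1, 32.3 and 33.6 CPM with PBS, 26.8, 30.4 and 29.7 with fluvastatin, and 32.7, 30.01 and 32.9 with MBV. Fluvastatin libraries lay below PBS and MBV overlapped it. It fell with fluvastatin at -0.25 (SE 0.071, FDR 0.0348) and was at -0.12 (SE 0.068, FDR 0.247) with MBV, and the fluvastatin call was lost in 7 of 12 alternatives, which were the removal of any Fluvastatin library or of PBS replicate 1 or 3, the replicate block and the correction, at -0.18 (FDR 0.127), with an FDR of up to 0.175. Efna2 was at 3.83, 3.72 and 3.799 CPM with PBS, 4.74, 4.49 and 4.66 with fluvastatin, and 5.7004, 4.25 and 5.95 with MBV. It differed by 0.29 (SE 0.12, FDR 0.128) with fluvastatin and rose with MBV at 0.48 (SE 0.15, FDR 0.0473), a call that held in 4 of 12 alternatives with an FDR of up to 0.141. It was lost without MBV replicate 1 or 3 or any PBS replicate, with the replicate block, with DESeq2 and in the corrected fit, at 0.39 (FDR 0.112). Efnb2, a ligand in retinal axon divergence and in vessels, was at 44.1, 39.5 and 42.5 CPM with PBS, 44.2, 53.8 and 48.6 with fluvastatin, and 38.7, 42.3 and 51.6 with MBV. The differences were 0.22 (SE 0.074, FDR 0.0684) and 0.06 (SE 0.097, FDR 0.674), and without Fluvastatin replicate 1 the former was 0.28 (FDR 0.00841). Efnb1 differed by -0.0019 (SE 0.084, FDR 0.99002) and 0.06 (SE 0.072, FDR 0.591), with all groups overlapping. The weakest ephrin, Efna4, was at 0.585, 0.853 and 0.9498 CPM with PBS, 0.3295, 0.299 and 0.466 with fluvastatin, and 0.621, 0.411 and 0.513 with MBV, with differences of -1.12 (SE 0.36, FDR 0.0518) and -0.61 (SE 0.33, FDR 0.211).

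Eph receptors are receptor tyrosine kinases, and of the 9 EphA genes 2 rose with fluvastatin and 4 with MBV, while none fell. Of the 5 EphB genes 2 rose with fluvastatin and 1 with MBV. Ephb2 and Epha8, both called in both comparisons, lie 93430 bases apart on chromosome 4 with 3 genes between them. Ephb2, at chr4:136374850-136563299 on the minus strand of GRCm39, marks ventral retinal ganglion cell axons in development and was at 45.2, 43.01 and 48.6 CPM with PBS, 57.2, 65.4 and 58.4 with fluvastatin, and 69.9, 73.4 and 64.5 with MBV. PBS libraries were lowest, fluvastatin intermediate and MBV highest in the means, and PBS did not overlap either treatment. Ephb2 rose at 0.40 (SE 0.066, FDR 0.00303) with fluvastatin and 0.59 (SE 0.064, FDR 0.000633) with MBV. Epha8, at chr4:136656730-136684127 on the minus strand of GRCm39, was at 34.9, 33.1 and 32.3 CPM with PBS, 40.5, 47.5 and 43.04 with fluvastatin, and 49.4, 53.7 and 48.1 with MBV. No groups overlapped, and the log2 fold change was 0.39 (SE 0.067, FDR 0.00387) and 0.58 (SE 0.059, FDR 0.000544). After the correction Ephb2 was at 0.24 (FDR 0.0407) and 0.39 (FDR 0.00354) and Epha8 at 0.23 (FDR 0.0526) and 0.39 (FDR 0.00371).

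The promoters of this neighbouring pair are shown because the genes moved alike, with 250 bases before and 50 after the start from RefSeq in the build GRCm38.p6, both on the minus strand, at chr4:136956767-136957066 for Epha8 and chr4:136835963-136836262 for Ephb2. Capitals mark the GC box GGGCGG on either strand, a motif bound by Sp factors, found 6 times in the first and not in the second.
Epha8: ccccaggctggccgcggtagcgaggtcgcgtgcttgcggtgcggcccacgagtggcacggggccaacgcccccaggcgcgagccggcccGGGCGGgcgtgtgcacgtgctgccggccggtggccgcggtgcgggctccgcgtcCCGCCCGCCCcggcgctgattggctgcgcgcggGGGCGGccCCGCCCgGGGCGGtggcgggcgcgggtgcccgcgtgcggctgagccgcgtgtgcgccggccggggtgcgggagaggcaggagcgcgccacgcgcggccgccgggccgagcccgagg
Ephb2: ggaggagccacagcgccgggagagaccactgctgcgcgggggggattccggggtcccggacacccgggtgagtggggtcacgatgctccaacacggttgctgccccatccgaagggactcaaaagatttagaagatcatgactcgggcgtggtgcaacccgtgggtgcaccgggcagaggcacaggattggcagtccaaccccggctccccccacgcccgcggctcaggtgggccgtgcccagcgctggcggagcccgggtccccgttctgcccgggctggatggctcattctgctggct
Promoters were matched for 60 of the 70 genes. The GC box stood in 45 of these 60 (75%) and in 35.9% of 27025 promoters, and the ETS core CCGGAAG, searched on both strands, in 2 of 60 and in 9.12%. The 60 genes passed the count minimum, while the 27025 promoters were not limited to such genes. Only 48 of the 60 genes have 1 promoter, so the shares rest on unlike sets. These matches describe letters only.

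Epha10, a receptor without an active kinase, was at 25.5, 24.3 and 23.2 CPM with PBS, 32.3, 33.7 and 31.2 with fluvastatin, and 32.9, 34.9 and 31.6 with MBV. All treated libraries were above PBS, with 0.41 (SE 0.062, FDR 0.00218) and 0.43 (SE 0.063, FDR 0.00166), and both calls held in all 12 alternatives. Epha5 and Epha7, receptors long known on retinal axons, were not called. Epha5 was at 106, 101 and 99.995 CPM with PBS, 94.9, 95.3 and 86.9 with fluvastatin, and 93.1, 94.9 and 98.9 with MBV, lower in every treated library than in PBS, with -0.15 (SE 0.052, FDR 0.0678) and -0.11 (SE 0.045, FDR 0.111), and without Fluvastatin replicate 1 the former was -0.17 (FDR 0.0421). Epha7 was at 64.4, 61.4 and 65.9 CPM with PBS, 64.3, 61.6 and 62.7 with fluvastatin, and 70.7, 77.3 and 56.9 with MBV, with -0.03 (SE 0.049, FDR 0.754) and 0.09 (SE 0.097, FDR 0.545), and without MBV replicate 3 it was 0.20 (FDR 0.0187). Ephb1, the receptor of ipsilaterally projecting axons at the chiasm, was at 35.8, 31.7 and 30.8 CPM with PBS, 29.7, 28.3 and 26.2 with fluvastatin, and 30.7, 29.003 and 26.8 with MBV. It too was lower in every treated library than in PBS, at -0.23 (SE 0.074, FDR 0.0557) and -0.19 (SE 0.076, FDR 0.0909), and was called lower in the corrected fit at -0.30 (FDR 0.0296) and -0.27 (FDR 0.0378).

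Epha2 showed the largest fold among the calls. It is an EphA receptor also known in epithelia and in lens, and it was at 3.48, 2.25 and 4.33 CPM with PBS, 3.54, 4.93 and 7.51 with fluvastatin, and 8.15, 12.7 and 4.58 with MBV. MBV replicate 2 stood highest and replicate 3 was close to the highest PBS library, although the groups did not overlap. The log2 fold change was 0.67 (SE 0.28, FDR 0.128) with fluvastatin and 1.33 (SE 0.35, FDR 0.0221) with MBV. The MBV call was lost with the replicate block and without MBV replicate 1 or 2 or PBS replicate 1 or 2, with an FDR of up to 0.0774. Lens markers summed to 149.7, 68.4 and 58.9 CPM in MBV replicates 1, 2 and 3 against at most 4.78 with PBS, and all 6 rose with MBV. Library by library the ranks differed, with Epha2 highest in MBV replicate 2 and the lens sum in replicate 1. Fluvastatin replicate 3 held Epha2 at 7.51 CPM and a lens sum of 1.31. What lens markers contribute to the Epha2 value was not tested. Epha1, whose exons share 36.9% of their length with Zyx on the other strand, also rose with MBV at 0.94 (SE 0.28, FDR 0.0338), a call that held in 3 of 12 alternatives and was at 0.87 (FDR 0.0589) in the corrected fit, and Ephb6, which shares 14.7% with Trpv6, rose with fluvastatin at 0.29 (SE 0.080, FDR 0.0292) and was not called in the corrected fit, at 0.17 (FDR 0.219). The Ephb6 call held in 7 of 12 alternatives.

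Slits are secreted repellents. Slit1 was at 28.2, 27.5 and 26.6 CPM with PBS, 32.01, 33.9 and 32.1 with fluvastatin, and 36.2, 41.3 and 33.02 with MBV. PBS stayed below both treatments, and the log2 fold change was 0.25 (SE 0.057, FDR 0.0126) with fluvastatin and 0.41 (SE 0.080, FDR 0.00588) with MBV, which the correction brought to 0.09 (FDR 0.336) and 0.23 (FDR 0.0657). The fluvastatin call was also lost without Fluvastatin replicate 2. Slit2, the more abundant of the pair, was at 262, 250.3 and 239.7 CPM with PBS, 249, 242 and 232 with fluvastatin, and 265, 277 and 217 with MBV. All groups overlapped, with -0.06 (SE 0.047, FDR 0.4496) and 0.0028 (SE 0.084, FDR 0.983) and intervals from -0.16 to 0.05 and from -0.19 to 0.19 on the log2 scale, or 0.894 to 1.03 and 0.879 to 1.14 as folds. Slit3 was at 1.23, 1.36 and 3.19 CPM with PBS, 2.43, 1.94 and 3.31 with fluvastatin, and 3.398, 3.79 and 0.941 with MBV, with 0.42 (SE 0.35, FDR 0.454) and 0.50 (SE 0.50, FDR 0.511) and the widest spread of any member with PBS and with MBV.

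Of the 4 Robos, the receptors of Slits, 2 rose with fluvastatin and 3 with MBV. Robo1 was at 29.2, 27.7 and 31.3 CPM with PBS, 36.7, 39.7 and 39.2 with fluvastatin, and 37.9, 41.2 and 37.98 with MBV. Treated libraries stayed at 36.7 CPM or above and PBS libraries did not exceed 31.3. Robo1 rose at 0.39 (SE 0.062, FDR 0.002595) and 0.40 (SE 0.062, FDR 0.00224), which held in all 12 alternatives of both comparisons, at 0.35 (FDR 0.00854) and 0.35 (FDR 0.00599) after the correction. Robo2, the neighbouring gene on chromosome 16 and the main Slit receptor of retinal ganglion cell axons, was at 138, 126 and 136 CPM with PBS, 118, 142 and 139 with fluvastatin, and 139, 138 and 129 with MBV. All its groups overlapped, with -0.0029 (SE 0.069, FDR 0.981) and 0.01 (SE 0.051, FDR 0.876), and intervals from -0.16 to 0.15 and from -0.10 to 0.13. Whether Robo1 and Robo2 differ in response was not tested.

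Robo4 and Robo3 meet tail to tail on chromosome 9, with 553 bases between their downstream ends, and are the weakest Robos. Robo4, known from endothelial cells, was at 1.04, 1.09 and 1.8996 CPM with PBS, 1.85, 2.58 and 4.03 with fluvastatin, and 2.59, 3.29 and 2.65 with MBV. PBS replicate 3 exceeded the lowest fluvastatin library and stayed below MBV. The log2 fold change was 1.08 (SE 0.32, FDR 0.0404) with fluvastatin and 1.08 (SE 0.26, FDR 0.0159) with MBV. The fluvastatin call was lost without Fluvastatin replicate 2 or 3, without PBS replicate 1 or 2 and in the corrected fit, at 0.97 (FDR 0.0809), with an FDR of up to 0.152, and the MBV call without PBS replicate 1 or 2, with up to 0.0694. Of the 8 endothelial markers none was called with fluvastatin and Cdh5 alone with MBV, where it rose at 0.69 (SE 0.18, FDR 0.0195). Their median log2 fold change was 0.20 with fluvastatin and 0.29 with MBV, against -0.01 and 0.01 over all genes, with Cdh5 at 0.49 (SE 0.17, FDR 0.0675) with fluvastatin and Pecam1 at 0.29 (SE 0.21, FDR 0.383) and 0.41 (SE 0.14, FDR 0.06096). Their part in the Robo4 values was not tested. Robo3, known for letting commissural axons cross the midline, was at 1.202, 1.23 and 0.912 CPM with PBS, 1.24, 1.61 and 1.103 with fluvastatin, and 2.12, 2.01 and 2.14 with MBV. Only MBV stood clear of PBS, with 0.24 (SE 0.25, FDR 0.544) and 0.89 (SE 0.21, FDR 0.0144), and the MBV call held in all 12 alternatives. The promoters of the pair are shown because the genes are neighbours, but their starts lie at the outer ends of the pair, so no promoter is shared. These are again 300 bases from RefSeq in GRCm38.p6 with GC boxes in capitals. They lie at chr9:37433126-37433425 on the minus strand for Robo3 and chr9:37401722-37402021 on the plus strand for Robo4. Robo3 holds 3 GC boxes and Robo4 none.
Robo3: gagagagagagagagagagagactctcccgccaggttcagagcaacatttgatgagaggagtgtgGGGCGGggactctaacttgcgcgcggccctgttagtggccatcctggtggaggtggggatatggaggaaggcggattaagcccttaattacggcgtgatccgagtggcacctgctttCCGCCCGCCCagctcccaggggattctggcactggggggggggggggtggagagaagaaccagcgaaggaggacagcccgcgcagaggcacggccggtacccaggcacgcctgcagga
Robo4: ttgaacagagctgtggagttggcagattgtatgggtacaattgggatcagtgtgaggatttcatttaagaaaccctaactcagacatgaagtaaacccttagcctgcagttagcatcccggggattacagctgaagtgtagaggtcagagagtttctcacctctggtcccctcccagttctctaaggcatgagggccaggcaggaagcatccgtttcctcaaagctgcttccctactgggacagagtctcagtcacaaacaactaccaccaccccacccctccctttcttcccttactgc

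Netrins and netrin-Gs moved in both directions. Of 5, 2 rose and 1 fell with fluvastatin, and 1 rose and 1 fell with MBV. Ntn1, netrin-1, which attracts axons through Dcc and repels them through Unc5 receptors, was at 2.405, 2.11 and 1.71 CPM with PBS, 3.62, 3.29 and 3.48 with fluvastatin, and 3.36, 4.11 and 3.34 with MBV. Each treated library lay above each PBS library. The log2 fold change was 0.73 (SE 0.17, FDR 0.0158) with fluvastatin and 0.78 (SE 0.19, FDR 0.0154) with MBV, or a fold of 1.66 and 1.71, and the corrected values were 0.57 (FDR 0.0646) and 0.59 (FDR 0.0565). The MBV call was also lost without MBV replicate 2. Ntn4, at chr10:93476543-93583069 on the plus strand of GRCm39, a netrin of basement membranes, was at 14.6, 14.4 and 17.1 CPM with PBS, 11.8, 10.1 and 11.4 with fluvastatin, and 12.1, 9.27 and 11.9 with MBV. It was lower in every treated library. Ntn4 fell at -0.47 (SE 0.098, FDR 0.00901) and -0.47 (SE 0.11, FDR 0.0166), the fluvastatin call held in all 12 alternatives, and the MBV call was lost without PBS replicate 3, with an FDR of 0.0517. Ntng2 was at 148, 157 and 146 CPM with PBS, 177, 187 and 177 with fluvastatin, and 156, 157 and 189 with MBV. Fluvastatin libraries were clear of PBS and MBV replicate 3 stood apart from the other MBV libraries, with 0.26 (SE 0.046, FDR 0.00445) and 0.15 (SE 0.073, FDR 0.184), and a corrected 0.16 (FDR 0.0697) for fluvastatin.

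Among the 6 netrin receptors, 2 rose and 1 fell with fluvastatin and 4 rose and 1 fell with MBV. Neo1, at chr9:58781970-58943724 on the minus strand of GRCm39, encodes neogenin, a relative of Dcc that also binds repulsive guidance molecules, and was at 169, 171 and 161 CPM with PBS, 139, 130.5 and 124 with fluvastatin, and 134, 126 and 146 with MBV. All treated libraries fell below the 3 PBS libraries. Neo1 fell at -0.35 (SE 0.052, FDR 0.00203) with fluvastatin and -0.31 (SE 0.058, FDR 0.00484) with MBV, both calls held in all 12 alternatives, and the correction gave -0.42 (FDR 0.00184) and -0.40 (FDR 0.00372). Dcc was at 85.3, 85.01 and 79.6 CPM with PBS, 87.5, 93.3 and 86.5 with fluvastatin, and 91.97, 97.4 and 98.6 with MBV. It lay above PBS in every treated library, at 0.10 (SE 0.052, FDR 0.239) with fluvastatin and 0.19 (SE 0.050, FDR 0.0196) with MBV. The MBV call was lost with the replicate block and without MBV replicate 2 or PBS replicate 1 or 3, with an FDR of up to 0.058999.

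Unc5a was at 34.1, 33.3 and 33.8 CPM with PBS, 38.3, 40.7 and 38.3 with fluvastatin, and 44.5, 48.004 and 47.2 with MBV. The 3 groups did not overlap, PBS being lowest and MBV highest. The log2 fold change was 0.21 (SE 0.052, FDR 0.0179) with fluvastatin and 0.46 (SE 0.050, FDR 0.000657) with MBV, and the MBV call held in all 12 alternatives. The fluvastatin call was lost without Fluvastatin replicate 2 or PBS replicate 1 or 2 and in the corrected fit, at 0.05 (FDR 0.562). Unc5d was at 56.9, 56.7 and 58.7 CPM with PBS, 58.5, 64.2 and 64.7 with fluvastatin, and 67.6, 68.1 and 61.7 with MBV, with 0.12 (SE 0.054, FDR 0.155) and 0.19 (SE 0.053, FDR 0.0295). Only the MBV libraries were clear of PBS, and the MBV call held in 6 of 12 alternatives, lost with the replicate block and without MBV replicate 1 or 2 or any PBS library. Unc5c was at 64.99, 58.1 and 61.02 CPM with PBS, 54.9, 55.7 and 52.6 with fluvastatin, and 61.2, 56.5 and 66.7 with MBV. Fluvastatin libraries were lower than PBS without passing the test, at -0.18 (SE 0.056, FDR 0.0505), and at -0.21 (FDR 0.0465) without PBS replicate 2, while MBV was at -0.01 (SE 0.069, FDR 0.949). Unc5b, known also in vessels, rose in both comparisons at 0.41 (SE 0.12, FDR 0.0366) and 0.54 (SE 0.12, FDR 0.0112) and was called in neither after the correction, at 0.26 (FDR 0.198) and 0.36 (FDR 0.0581). Its call held in 5 of 12 alternatives with fluvastatin and in 10 with MBV.

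MBV was compared with Fluvastatin to ask whether the agents differ from each other, and here the libraries are read as coming from 1 set. No guidance gene was called by edgeR's quasi-likelihood test, and none by DESeq2. Of all genes tested 0.0588% were called, 11 of 18721. At an unadjusted p under 0.05 there were 13 guidance genes, all higher with MBV, where 10.7% of all genes passed in either direction. The median log2 fold change was 0.09, against 0.01 over all genes. For 62 of the 70 genes the 95% interval lay within a 1.5-fold change in either direction. The smallest FDR was that of Unc5a, at 0.25 (SE 0.057, FDR 0.204), and Sema4d was at 0.20 (SE 0.056, FDR 0.312), Sema3f at 0.26 (SE 0.083, FDR 0.351), Robo3 at 0.66 (SE 0.22, FDR 0.366), Epha8 at 0.21 (SE 0.072, FDR 0.379) and Ephb2 at 0.20 (SE 0.069, FDR 0.384). Libraries of the groups did not overlap for 11 genes that were higher with MBV and 1 that was lower, where 9.18% of genes with the count minimum did so in each direction.

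What the called genes share beyond the names was looked at as a description. The 20 that rose with fluvastatin had a median exon length of 8282 bases and a median level of 3.55 CPM per kilobase, against 7936 bases and 3.09 for the 45 not called. With MBV the 27 that rose had 7847 bases and 3.58, against 8174 bases and 3.02 for 40. Their median GC content was 55.8% with fluvastatin and 56.6% with MBV, against 55.0% and 52.1% for the members not called. Both genes of the pairs Ephb2 and Epha8 and Robo4 and Robo3 rose with MBV, whereas of Robo1 and Robo2 only Robo1 was called, and of Sema3b and Sema3f only Sema3f. No gene was called in the neighbours Efna3 and Efna4, 10424 bases apart, or Efna1 and Efna3, 32756 bases apart. Of Sema7a and Neo1 only Neo1 was called, and it fell. These pairs were picked after their values were seen, and not all neighbouring pairs are named.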

How the data were processed

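Total RNA of 12 whole-retina samples was sequenced in 4 groups of 3. Reads were aligned by the authors to GRCm39 in CLC Genomics Workbench, and raw, unnormalized counts per gene were deposited. Their deposited fold changes, p-values and FDRs were not used. The counts of 9 libraries were read, and 6 count columns that name no library were used in no step, so the planned fits of the combined treatment were not run. The strand setting of the counting is not given in the sources used here, and 9 guidance genes share exon bases with another counted gene.

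The quasi-likelihood test of edgeR 4.0.16 was run in R 4.3.3. Genes with a count in any of the 6 libraries compared were scaled by TMM and fitted for these 2 groups alone, with Benjamini-Hochberg adjustment over all genes. A call is an FDR under 0.05. On simulated counts of 18494 to 18517 genes for Fluvastatin and PBS the procedure recovered 97% to 98% of 200 genes changed 2-fold, with at most 10 false calls. The changed genes were drawn from well-counted ones, and no library set difference or GC trend was simulated. Most calls here are under 2-fold, so these figures give neither the power nor the error rate for them. Replicates varied by 7.78% (Fluvastatin against PBS), 8.57% (MBV against PBS) and 10.1% (MBV against Fluvastatin) by the common dispersion. Replicate libraries differed by more than sampling noise in every pair.

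Values are given for up to 8 members per direction and comparison with the smallest FDR, for the member with the highest level in each family, and for 32 members long described on retinal axons or in the retina. Other members named were chosen after their values were seen. The members and lists were chosen with earlier results of these data known. Alternatives were a filter of 10 counts in 3 of 9 libraries, 1 fit of all 9 libraries, upper-quartile scaling, the replicate block, DESeq2 1.42.0 and leaving out each library. The correction for GC content and length, added after seeing the data, takes lowess curves of log2 counts on GC content and then length of the longest transcript in GENCODE M39 as offsets, and 70 of 70 members had a value. Exon lengths and positions are from GENCODE M39. Tables were made in Python 3.11.15 with pandas 2.3.3, numpy 2.4.6 and scipy 1.17.1.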

Additional observations from a re-analysis of the deposited data

How the results depend on the processing

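In 12 alternatives per comparison no call of a named gene changed direction. Of the 25 calls with fluvastatin 8 held in all 12, and of the 30 with MBV 12 did. The correction for transcript GC content and length, chosen after seeing the data, moved the count of higher genes to 5 with fluvastatin and to 15 with MBV. With it 5.51% and 8.54% of all genes rose. Leaving out each replicate in turn gave 10 to 26 higher and 3 to 7 lower genes with fluvastatin, 18 to 29 and 2 to 3 with MBV, and 0 for MBV against Fluvastatin. The shares of all genes moved too, from 4.499% to 11.4% higher and from 4.76% to 12.1% lower with fluvastatin. With MBV they ran from 6.41% to 14.04% higher and from 8.06% to 16.1% lower. With the replicate block there were 21 higher and 4 lower with fluvastatin, 22 and 3 with MBV, and 0 between the agents, and with DESeq2 19 and 4, 25 and 3, and 0. Of all genes, 9.54% rose and 10.3% fell with the block for fluvastatin, and 9.26% and 11.3% for MBV. With DESeq2 the shares were 9.58% and 9.26% for fluvastatin, and 11.9% and 12.6% for MBV. Same-numbered libraries correlated at -0.27 to 0.11 in their deviations from the group means, so the numbers are not taken to pair samples. Of 79 values of named genes that were not called, 34 changed sign in at least 1 alternative, with sizes of up to 0.13 in the fit of the report and 0.21 in the alternative. Alternatives for the combined treatment were not run. Efna4, Epha1 and Robo3 rest on the fewest counts, 133, 206 and 348 over the 9 libraries, and the 95% interval lay within a 1.5-fold change for 47 of the 70 genes with MBV against PBS.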

Other observations

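The cytoplasmic proteins that carry guidance signals to the cytoskeleton were measured as a list of 56 genes, all of them tested. With fluvastatin 15 rose and 6 fell (26.8% and 10.7%, against 9.36% and 10.2% of all genes), with a median log2 fold change of 0.10, and with MBV 17 rose and 3 fell (30.4% and 5.36%, against 12% and 14.1%), with a median of 0.12, where the all-gene medians were -0.01 and 0.01. After the correction for transcript GC content and length the counts were 6 and 1 with fluvastatin (10.7% and 1.79%, against 5.51% and 5.84% of all genes) and 6 and 3 with MBV (10.7% and 5.36%, against 8.54% and 9.86%). Srgap3, a GTPase-activating protein downstream of Robos, was at 0.33 (SE 0.043, FDR 0.00132) with fluvastatin and 0.48 (SE 0.052, FDR 0.000643) with MBV, and corrected at 0.24 (FDR 0.00902) and 0.38 (FDR 0.00210). Mical3, of the family of redox enzymes that act on actin below plexins, was at 0.38 (SE 0.048, FDR 0.00114) and 0.39 (SE 0.050, FDR 0.000969), and corrected at 0.22 (FDR 0.0187) and 0.20 (FDR 0.0153). The p21-activated kinase genes Pak2 and Pak3 fell, Pak2 at -0.21 (SE 0.041, FDR 0.00691) and -0.25 (SE 0.040, FDR 0.00247), and Pak3 at -0.20 (SE 0.046, FDR 0.0126) and -0.27 (SE 0.042, FDR 0.00228). Neither was called in the corrected fluvastatin fit, and both were with MBV. Between MBV and Fluvastatin no gene of the list was called by edgeR's quasi-likelihood test.

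Of 48 other guidance cues and their receptors 7 rose and 7 fell with fluvastatin (14.6% each, against 9.36% and 10.2% of all genes) and 14 rose and 6 fell with MBV (29.2% and 12.5%, against 12% and 14.1%). After the correction the counts were 2 and 4 with fluvastatin (4.17% and 8.33%, against 5.51% and 5.84%) and 4 and 5 with MBV (8.33% and 10.4%, against 8.54% and 9.86%), shares near those of all genes. Rtn4, which encodes the myelin inhibitor Nogo, fell at -0.34 (SE 0.042, FDR 0.00107) with fluvastatin and -0.38 (SE 0.045, FDR 0.000820) with MBV, and stayed called after the correction at -0.28 (FDR 0.00447) and -0.32 (FDR 0.00354). Omg, another myelin-associated inhibitor, fell at -0.33 (SE 0.069, FDR 0.00832) and -0.74 (SE 0.066, FDR 0.000437), with corrected values of -0.16 (FDR 0.167) and -0.54 (FDR 0.00149). The Nogo receptor homologue Rtn4rl2 rose at 0.36 (SE 0.091, FDR 0.0195) and 0.47 (SE 0.077, FDR 0.00278), and corrected it was at 0.25 (FDR 0.0860) and 0.34 (FDR 0.0109). Draxin, a secreted repellent that binds Dcc, rose with MBV at 1.10 (SE 0.25, FDR 0.0117), and corrected at 0.99 (FDR 0.0238). Between MBV and Fluvastatin none of the 48 was called. These genes were picked from the lists after their values were seen.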
